A study of Mus musculus with 2 samples.

Results

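The genes of the respiratory chain were followed in RNA-seq of whole mouse kidney, where they were 117 of the 20002 genes measured. They were taken by symbol: nuclear genes starting with Nduf, Uqcr, Cox4, Cox5, Cox6, Cox7, Cox8 or Atp5, the 4 Sdh genes, Cyc1, Cycs, and the 13 subunits encoded by mitochondrial DNA. Of these, 104 were nuclear genes. Subunits of the complexes, with cytochrome c counted among them, made up 92 genes, 79 of them nuclear. The others were assembly factors, tissue isoforms, a supercomplex factor, and copies or pseudogenes. Of the 117 genes, 111 had at least 10 scaled reads in 1 library and were kept. The 6 below this level were the isoform Cox8b and the pseudogenes Ndufab1-ps, Atp5k-ps1, Atp5k-ps2, Atp5l-ps1 and Atp5l-ps2.

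The kidneys came from C57BL/6J mice given AAV9 through the tail vein at 11 weeks of age, with no other treatment named in the labels. In the Reg-2 CKO group the virus carried short hairpin RNA against Regnase-2, an RNA-binding endonuclease. The group is thus a knockdown, although its label names a proximal tubule-specific conditional knockout. The methods describe the control virus as an empty vector in one place and as control shRNA in another. RNA was taken at 14 weeks by the RNA-seq methods, which name the left kidney, and at 16 weeks by the AAV9 methods. The promoter driving the hairpin, and whether a library held 1 mouse or a pool, are not stated in the sources used here. Each group had 1 library, so no difference has a replicate check, no test between the groups was made, and every value describes these 2 libraries. The authors call the deposited values normalized counts. They are whole numbers, and after an inferred constant per library was subtracted they are called reads here, 38851231 in the control library and 43588721 in that of the CKO group. CKO reads were then multiplied by 0.667, the median over genes of control reads over CKO reads, and a log2 ratio is log2 of (scaled CKO reads + 1) over (control reads + 1). The intervals given are 95% Clopper-Pearson intervals that treat these values as raw counts and cover counting error alone. Normalized values need not be raw counts, so the widths of the intervals may be wrong. Zc3h12b, which encodes Regnase-2, had 47 control and 59 CKO reads and a log2 ratio of -0.25 (interval -0.83 to 0.33). At this depth no difference in its mRNA was detectable, and the gene does not check the labels. The paper reports less Regnase-2 protein in proximal tubules and more NGAL in CKO kidneys by staining of kidney sections, which is no check of these libraries themselves. From RNA-seq of CKO mice it also reports higher Lcn2, which encodes NGAL, and lower mRNA of key mitochondrial and peroxisomal enzymes.

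The respiratory chain lies in the inner mitochondrial membrane. Complex I takes electrons from NADH and complex II from succinate, both pass them to coenzyme Q, and complex III hands them on to cytochrome c, from which complex IV reduces oxygen. Complexes I, III and IV pump protons, and complex V, the ATP synthase, makes ATP from the gradient. Mitochondrial DNA encodes a few core subunits of complexes I, III, IV and V, while all subunits of complex II are nuclear. Proximal tubule cells are rich in mitochondria and depend on oxidative ATP synthesis to drive sodium reabsorption.

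Every one of the 92 subunits had a log2 ratio below that of the median gene. It was also so with the other pseudocounts and filters and without subtraction of the constants, while a scaling factor moves all genes alike and cannot change it. With the scaling used here all 92 ratios were below 0, against 48.3% of the 17469 genes kept. Of the top 10% of genes by control reads, where most members lay, 83.5% were below 0. With equal library totals 83 of the 92 were below 0, against 20.3% of all genes kept and 51.2% of that top 10%. With the values as deposited 43 of the 92 were above 0 and 49 below. In that setting 9.55% of all genes kept and 36.5% of the top 10% were below 0. The median of the 79 nuclear subunits was -0.57, with quartiles of -0.70 and -0.50, whereas the median of all genes kept was 0.022, with quartiles of -0.33 and 0.48. A median of -0.57 corresponds to 67.2% of the control level. The upper limit of the interval lay below 0 for each of the 79. The nuclear subunits thus stood close together, from -0.97 for Cycs to -0.19 for Atp5mpl.

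**Figure D1:**
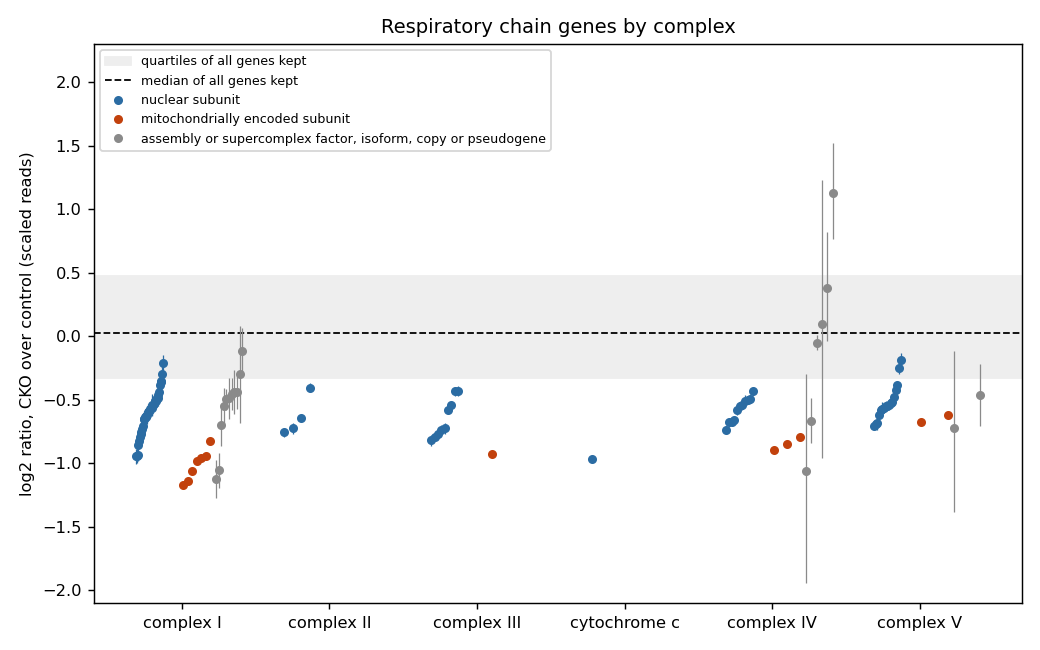
Log2 ratio of CKO over control for the 111 genes kept, by complex (vertical axis, scaled reads). Points are genes, thin lines their 95% intervals for counting error, the dashed line the median of all genes kept (0.022) and the grey band its quartiles (-0.33 to 0.48). All 92 subunits, blue and orange, lie below the dashed line. With the values as deposited 43 of them would lie above 0, a setting where 9.55% of all genes kept lie below 0.

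Few of these genes passed a fold of 2. At least 2-fold lower were 6 of the 111 members kept, against 5.35% of all genes kept, and 1 was at least 2-fold higher, against 13.4%. None of the 79 nuclear subunits was among the 6. They were the mitochondrially encoded ND2, ND5 and ND6, the muscle isoform Cox6a2, and Ndufb4b and Ndufb4c, which are copies of the complex I gene Ndufb4. At least 1.5-fold lower were 55 members, 49 of them subunits, against 13.9% of all genes kept. This count fell to 23 when scaled to genes with at least 1000 control reads, to 6 with equal library totals and to 1 as deposited, against 8.51%, 5.38% and 1.74% of all genes kept. With equal library totals, with the values as deposited, or scaled to genes with at least 1000 control reads, 0 members were at least 2-fold lower. The shares of all genes kept were 2.47%, 0.75% and 3.60% in these settings. Measured from the median gene, the pattern was a moderate shift shared by many genes and not a large change of a few.

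For many nuclear genes the sign of the ratio rested on how the libraries were scaled, because their reads were nearly equal, while all 13 mitochondrially encoded genes stayed below 0 in every setting. Before scaling, 49 of the 92 subunits, and 36 of the 79 nuclear ones, had fewer reads in the CKO than in the control library. With the values as deposited 49 of the 92 were below 0 as well, against 9.55% of all genes kept. Summed over all nuclear members, the control library had 966703 reads and the CKO library 952354. With the values as deposited the nuclear members of complexes I, IV and V had medians of 0.022, 0.075 and 0.045. The median gene moved with them, to 0.59, and with equal library totals it stood at 0.44. Relative to the median gene, where a scaling factor cancels, all nuclear members together were at -0.59 with the constants subtracted and at -0.56 for the deposited values.

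**Figure D2:**
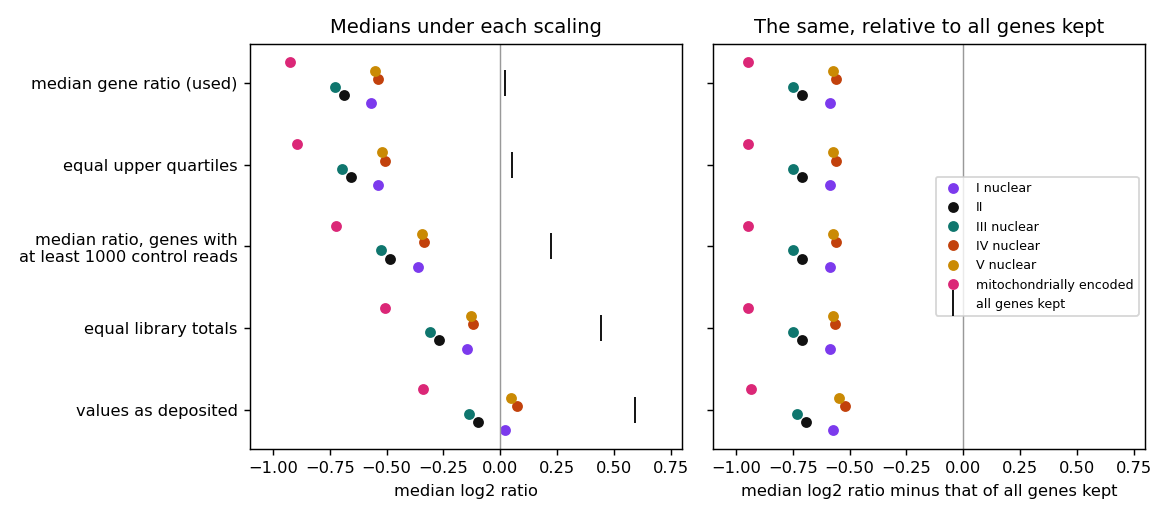
Median log2 ratio of the members of each complex under 5 scalings (left) and the same after the median of all genes kept was subtracted (right). Points are medians over members, and black bars on the left are the median of all genes kept. On the left the medians of the nuclear members of complexes I, IV and V change sign with the values as deposited, and on the right, where a scaling factor cancels by construction, every median lies between -0.95 and -0.52.

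Respiratory chain genes have many reads, and genes with many reads had lower ratios as a whole. The top 10% of genes by control reads, those with at least 3762, had a median log2 ratio of -0.43 (quartiles -0.74 and -0.13), and 36.6% of them were at least 1.5-fold lower, or 12.1% with equal library totals. Among these were 74 nuclear members, with a median of -0.58, while the 1660 other genes had a median of -0.41, and 37.0% of these lay below -0.57, the median of all 98 nuclear members kept. The members were therefore within the range of other abundant genes. They were closer together, with a width between quartiles of 0.21 for the nuclear members and 0.62 for the other genes. Transcript length was looked at as well: abundant genes outside the chain with transcripts of at most 1 kb numbered 137 and had a median of -0.15. Their quartiles were wide apart, at -0.62 and 0.057, and 29.2% of them lay below -0.57. Over all genes kept, those with transcripts of at most 1 kb had a median of -0.13 and those with longer ones 0.042. The part of read level in the shift was not tested.

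**Figure D3:**
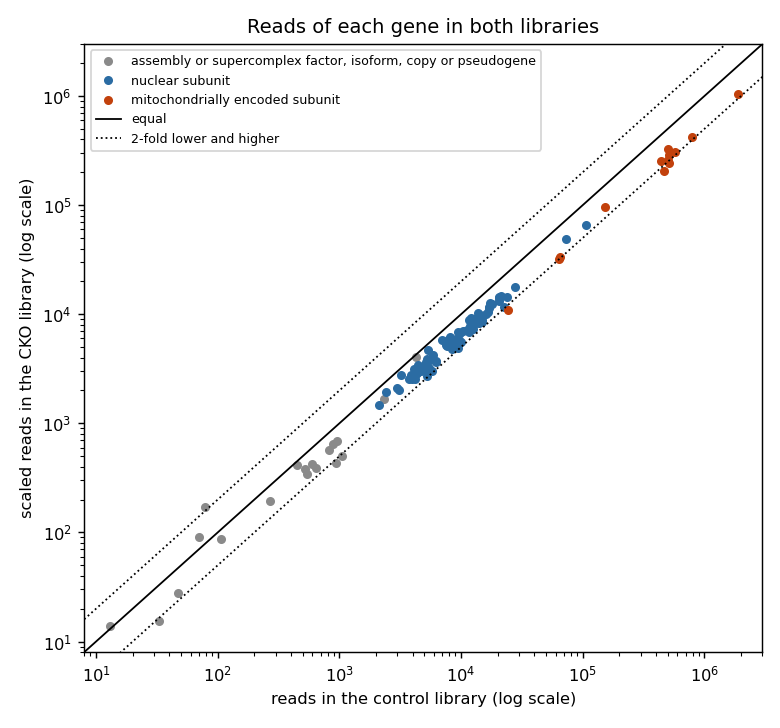
Reads of the 111 genes kept in the control library (horizontal axis) and scaled reads in the CKO library (vertical axis), both on log scales. The solid line marks equal values and the dotted lines 2-fold differences. The 92 subunits form a narrow band under the line of equality, which would pass through the band with the values as deposited. Most of the 13 mitochondrially encoded genes sit at its upper end, while ND3, ND4L and ND6 lie below the nuclear gene Atp5b.

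Complex I, the NADH dehydrogenase, had 37 nuclear subunits in the data, and their median log2 ratio was -0.59. The 7 nuclear core subunits, which carry the flavin and iron-sulphur clusters or bind coenzyme Q, had a median of -0.65. Ndufs8 was the lowest of these, with 6277 control and 5437 CKO reads and a log2 ratio of -0.79. Ndufv1, which carries the flavin that accepts electrons from NADH, had 11591 and 10207 reads and a ratio of -0.77. Ndufs7, Ndufs1 and Ndufs3 were at -0.71, -0.65 and -0.56. Ndufv2, the partner of Ndufv1 in the NADH-oxidizing tip, was the highest at -0.39, with 8150 and 9343 reads. Ndufs8 and Ndufv2, at the ends, differed by more than their counting intervals, which do not cover variation between animals.

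The 30 supernumerary subunits, which surround the core and are needed to assemble or hold it, had a median of -0.58. Ndufv3 was the lowest nuclear subunit of complex I, with 5801 and 4515 reads and a log2 ratio of -0.95 (upper limit -0.89). Ndufa7 was the highest, with 3182 and 4118 reads and a ratio of -0.21 (interval -0.28 to -0.15). Both belong to the NADH-oxidizing module of the matrix arm. Grouped by module, 10 genes of that NADH-oxidizing module had a median of -0.55, 6 genes of the coenzyme Q module -0.60 and 21 nuclear genes of the membrane arm -0.59. The modules were alike in their medians. The spread was widest in the NADH-oxidizing module, with a width between quartiles of 0.32, against 0.12 and 0.14.

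The 8 assembly factors of complex I named Ndufaf had a median of -0.47 and ran from -0.70 for Ndufaf6 to -0.11 for Ndufaf5. Ndufaf5 had 452 and 626 reads, and its interval of -0.29 to 0.063 included 0. Ndufb4b and Ndufb4c had log2 ratios of -1.12 and -1.05, and Ndufb4 itself -0.86. Ndufb4c was at -0.99, no longer past 2-fold, when the constants were not subtracted before scaling. Reads of such near-identical copies may have been divided between them by the counting, so these values are uncertain. Per kilobase of transcript, Ndufb8 had the most control reads of the nuclear subunits of complex I, 18646, and its log2 ratio was -0.51.

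Complex II, the succinate dehydrogenase, is also an enzyme of the citric acid cycle. Its 4 genes had a median log2 ratio of -0.69. Sdha, the flavoprotein that oxidizes succinate, had 27690 control and 26523 CKO reads and a ratio of -0.65. Sdhb, the iron-sulphur subunit, had 14989 and 13294 reads and a ratio of -0.76. The catalytic pair thus lay close to the median of the complex. Of the membrane anchors, Sdhc was at -0.73, with 9544 and 8652 reads, and Sdhd at -0.41, with 12131 and 13733 reads. Sdhd was the only gene of the complex with more reads in the CKO library before scaling.

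The 9 nuclear genes of complex III had a median log2 ratio of -0.73, the lowest of the 5 complexes among nuclear subunits. Among the core genes, Uqcrc1 was at -0.79, with 14819 and 12855 reads, and Uqcrfs1, which encodes the Rieske iron-sulphur protein, at -0.77, with 12527 and 11035 reads. Cyc1, which encodes cytochrome c1, was at -0.58, with 12744 and 12788 reads. Uqcrc2, the partner of Uqcrc1 in the matrix-facing core, was at -0.54, with 17897 and 18441 reads. The core genes therefore formed a lower and a higher pair. The 5 small subunits were divided in the same way: Uqcrq, Uqcr10 and Uqcr11 were at -0.82, -0.74 and -0.73, while Uqcrh and Uqcrb were both at -0.43. Uqcr10 had the most control reads per kilobase of the nuclear subunits of the complex, 32124.

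Cycs encodes cytochrome c, the soluble protein that carries electrons from complex III to complex IV. It had 22587 control and 17330 CKO reads, and its log2 ratio of -0.97 (upper limit -0.94) was the lowest of the 79 nuclear subunits. This was 51.2% of the control level after scaling.

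Complex IV, the cytochrome c oxidase, had 11 main nuclear subunits, and their log2 ratios had a median of -0.55. They ran from -0.74 for Ndufa4, a subunit of complex IV despite its name, to -0.43 for Cox7b. Cox4i1, the largest of the nuclear subunits, had 20491 and 21156 reads and a ratio of -0.54. Cox6c had the most control reads per kilobase of the nuclear subunits of the complex, 40728, and a ratio of -0.50. Cox7a2l, which joins complexes III and IV into a supercomplex, stood apart from these with 4240 and 6143 reads and a ratio of -0.050 (interval -0.11 to 0.0067).

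Several subunits of complex IV have isoforms used in muscle, in testis or under low oxygen, and these had few reads in kidney. Cox6b2, the testis isoform, had 78 control and 257 CKO reads and a log2 ratio of 1.13 (interval 0.76 to 1.52), or 0.88 when the constants were not subtracted before scaling, while its main isoform Cox6b1 had 14373 and 14743 reads and a ratio of -0.55. Per kilobase, Cox6b2 was at 0.721% of Cox6b1 in control kidney and 2.32% in CKO kidney, so it remained a minor isoform in both. Ndufa4l2, a hypoxia-inducible relative of Ndufa4, had 70 and 137 reads and a ratio of 0.38 (interval -0.042 to 0.82). Cox4i2, another isoform linked to low oxygen, had 13 and 21 reads and a ratio of 0.10 (interval -0.96 to 1.23). These 3 genes were the only members kept with log2 ratios above 0, and for Ndufa4l2 and Cox4i2 the interval included 0. The muscle isoforms were on the other side. Cox7a1 had 543 and 513 reads and a ratio of -0.67, next to -0.68 for Cox7a2. Cox6a2 had only 33 and 23 reads and a ratio of -1.06 (interval -1.94 to -0.29), next to -0.68 for Cox6a1. It was no longer past 2-fold with a pseudocount of 10, at -0.76, or when the constants were not subtracted before scaling, at -0.44. Cox8b, with 4 reads in each library, was too low to compare with Cox8a, which was at -0.66.

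Complex V had 17 nuclear subunits with a median log2 ratio of -0.55 and a width between quartiles of 0.10. Atp5b, the catalytic beta subunit of the F1 sector, had the most reads of all nuclear members, 107243 control and 99532 CKO reads, and a ratio of -0.69. Atp5a1, the alpha subunit that alternates with it in the ring, had 72509 and 72804 reads and a ratio of -0.58. Atp5c1, the gamma subunit that turns inside the ring, had 21134 and 22090 reads and a ratio of -0.52. Atp5d was the lowest subunit at -0.71. The 5 genes of the F1 sector had a median of -0.58 and the 12 of the peripheral stalk and membrane sector -0.53. Atp5mpl, a small membrane subunit, was the highest at -0.19 (interval -0.24 to -0.13), with 5375 and 7088 reads. The pseudogene Atp5pb-ps, with 47 and 42 reads, was at -0.73, but its interval of -1.38 to -0.12 was wide. Per kilobase Atp5b was also the most abundant nuclear subunit, at 55972 control reads.

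The complexes differed in level per kilobase more than in their ratios. Median control reads per kilobase were 6037 for the nuclear subunits of complex I, 9701 for complex II, 17510 for complex III, 23528 for complex IV and 14686 for complex V. The complexes kept this order in the CKO library, with scaled medians of 4097, 6767, 11801, 15904 and 10300. The median over the 13 mitochondrially encoded genes was 537541 reads per kilobase for the control and 303357 scaled reads per kilobase for the CKO library.

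The 13 mitochondrially encoded subunits had lower log2 ratios than the nuclear ones, with a median of -0.92 and a range of -1.17 to -0.62. Their median was below 0 under each scaling, at -0.51 when library totals were made equal and -0.34 for the deposited values. They made up 16.7% of all control reads and 12.2% of all CKO reads, while the nuclear members made up 2.49% and 2.18%. For each read of a nuclear member there were thus 6.73 mitochondrially encoded reads in control kidney and 5.57 in CKO kidney, a comparison that the scaling factor between libraries cannot change. Libraries were made from poly(A) RNA, so these are shares of poly(A)-selected reads.

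Of the 7 subunits of complex I, all but ND1 were lower than the genes of the other complexes. ND2 had 466816 control and 310776 CKO reads and a log2 ratio of -1.17. ND6, the only one of the 13 on the light strand, had 24345 and 16560 reads and a ratio of -1.14. ND5, which overlaps ND6 by 14 bases on the other strand, had 510896 and 368095 reads and a ratio of -1.06. These 3 genes were the mitochondrially encoded members past a fold of 2. ND3 was at -0.98, with 63654 and 48260 reads, ND4L at -0.96, with 65373 and 50329 reads, and ND4 at -0.95, with 504500 and 392499 reads. ND1 was the highest of complex I at -0.83, with 514427 and 435469 reads. ND2 and ND1, at the ends of this range, are neighbours on mitochondrial DNA, and their log2 ratios had a difference of -0.35.

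CYTB, the cytochrome b of complex III, had 797247 control and 630158 CKO reads and a log2 ratio of -0.92. COX1, the catalytic subunit of complex IV, had the most reads of any gene in the control library, 1890982 against 1578073 in the CKO library, and a ratio of -0.85. COX2 had 440745 and 381397 reads and a ratio of -0.79, and COX3 had 570341 and 460168 reads and a ratio of -0.89. By their median, -0.85, the complex IV genes lay between complex I, at -0.98, and complex V, at -0.65, although ND1 was above COX1 and COX3. ATP8 had 153624 and 143984 reads and a ratio of -0.68, and ATP6 had 500681 and 489707 reads and the highest ratio of the 13, -0.62. ATP6 and ATP8 overlap by 43 bases and share a transcript, as do ND4 and ND4L, which overlap by 7, so reads in the overlaps are uncertain. Nuclear copies of mitochondrial DNA could also take or give reads.

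**Figure D4:**
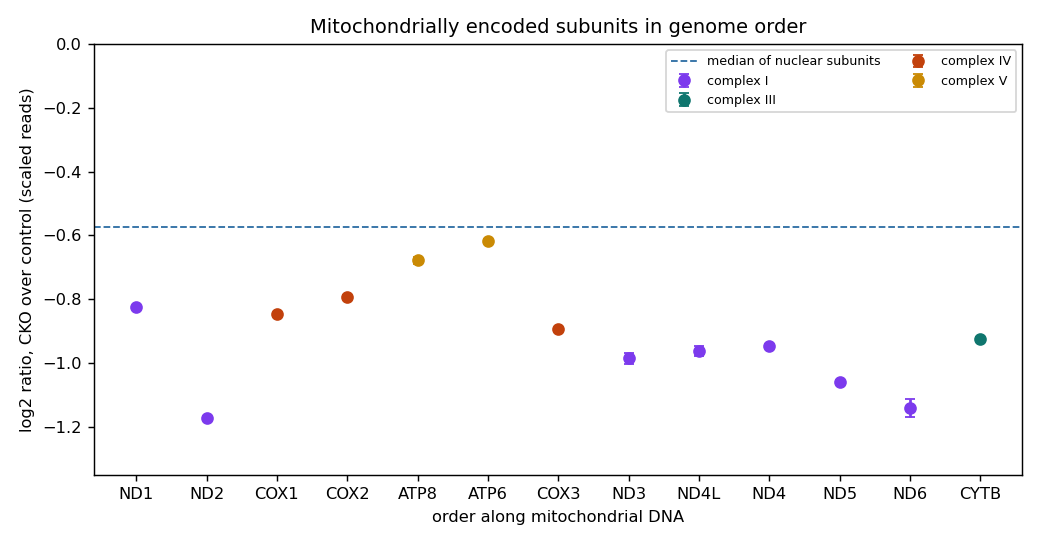
Log2 ratio of CKO over control for the 13 mitochondrially encoded genes (vertical axis, scaled reads) in their order along mitochondrial DNA (horizontal axis). Bars are 95% intervals for counting error, mostly smaller than the points, and the dashed line is the median of the nuclear subunits (-0.57). ATP8 and ATP6, in the middle, are nearest to that line, and ND2, ND5 and ND6 lie at -1.06 or below.

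Within the mitochondrially encoded reads, complex I went from 33.1% in control to 30.6% in CKO kidney and complex V from 10.1% to 11.9%. Complex IV went from 44.6% to 45.6% and complex III from 12.3% to 11.9%. The mitochondrially encoded genes did not move as a block, since complex I lost share and complex V gained it.

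The gap between both genomes differed by complex. In complex I the median of the mitochondrially encoded subunits was -0.98 and that of the nuclear subunits -0.59, a difference of -0.40. In complex IV the medians were -0.85 and -0.55, a difference of -0.30, and in complex III -0.92 and -0.73, a difference of -0.20. In complex V they were -0.65 and -0.55, a difference of only -0.098. No nuclear subunit of complex III or complex IV was as low as the highest mitochondrially encoded subunit of its complex. In complex I, 4 of 37 were lower than ND1, and in complex V, 4 of 17 were lower than ATP6. Whether these gaps exceed the variation between animals was not tested.

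Nuclear respiratory genes are known to share promoter motifs for the factors NRF1, GABPA, YY1 and the estrogen-related receptors, and their promoters were searched because the ratios of these genes lay close together. RefSeq promoters (GRCm38.p6), from 250 bases before to 50 bases after each start, matched 66 of the 79 nuclear subunits and gave 71 windows. The letters searched on both strands were GCGCANGC for the NRF1 core, CCGGAAG for GABPA and other ETS factors, AANATGGC for YY1 and TNAAGGTCA for the estrogen-related receptors (ERR). The NRF1 core was in 35.2% of the subunit windows and in 15.7% of 17649 windows from the 13878 genes measured that had a promoter in the table. For CCGGAAG the shares were 23.9% and 14.1%, for AANATGGC 23.9% and 7.24%, and for TNAAGGTCA 4.23% and 0.867%. Any of the 4 was in 66.2% of the subunit windows and in 32.0% of all. The log2 ratio differed little with the motifs: 46 genes with any of them had a median of -0.55 and 20 genes without had -0.66. A match is a description of letters and does not show that a factor binds.

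The 100 bases before the start are shown for 3 subunits, taken from the 16 whose stretch touched no annotated exon. Ndufv3 had the lowest log2 ratio of these 16, -0.95, and its stretch on chr17:31520015-31520114 (plus strand) held none of the motifs. Ndufc2, a membrane arm subunit of complex I on chr7:97399903-97400002 (plus strand), had the highest, -0.30, with 2398 control and 2926 CKO reads, and held an NRF1 core. Atp5g3, which encodes the c-ring protein of complex V, lay on chr2:73911327-73911426 (minus strand), had 16894 and 17312 reads and a ratio of -0.55, and held an ERR motif read on the opposite strand. Capitals mark the motif.
Ndufv3: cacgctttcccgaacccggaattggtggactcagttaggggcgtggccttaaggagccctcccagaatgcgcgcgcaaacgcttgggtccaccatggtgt
Ndufc2: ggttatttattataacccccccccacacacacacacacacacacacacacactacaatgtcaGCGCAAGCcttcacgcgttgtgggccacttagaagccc
Atp5g3: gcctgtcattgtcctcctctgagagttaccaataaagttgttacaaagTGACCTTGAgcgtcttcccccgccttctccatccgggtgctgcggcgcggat

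The genes around the chain were read from lists of known function. The 13 enzymes of the citric acid cycle, which supplies NADH and succinate, had a median log2 ratio of -0.65, with Cs, the citrate synthase, the highest at -0.31, and 8 of them were at least 1.5-fold lower, against 13.9% of all genes kept and 36.6% of the top 10% by control reads, or 0 with equal library totals, against 5.38% and 12.1%. The 8 other donors of electrons to coenzyme Q had a median of -0.70, from -0.88 for Etfb, a subunit of the electron transfer flavoprotein, to -0.050 for Dhodh, the pyrimidine synthesis enzyme. Coenzyme Q synthesis (13 genes) had a median of -0.57, from -0.89 for Coq9 to 0.0018 for Coq10b. These lists lay as low as the nuclear subunits themselves.

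Genes that build or maintain the chain were less far from the median gene, but read levels differed between the lists. Among all genes kept, the median log2 ratio was 0.048 at 453 to 752 control reads, -0.20 at 1929 to 3758 and -0.43 from 3762 upward. The part of read level in the order of the lists was not tested. The 40 other assembly factors had a median of -0.45, from -0.90 for Acad9, which acts on complex I, to 0.21 for Uqcc2, which acts on complex III. The 16 genes that keep and transcribe mitochondrial DNA had a median of -0.36, from -0.68 for Tefm, the transcription elongation factor, to 0.21 for Mterf1a. The 78 mitochondrial ribosomal proteins had a median of -0.39, from -0.96 for Mrpl44 to 0.32 for Mrpl33. The 10 regulators of mitochondrial biogenesis had a median of -0.19, from -0.62 for Esrra, an estrogen-related receptor, to 0.64 for Pprc1, a coactivator of the PGC-1 family. Ppargc1a and Ppargc1b, of the same family, lay below 0. Ppargc1a had 3512 control and 4252 CKO reads and a ratio of -0.31, and Ppargc1b had 1062 and 1204 reads and a ratio of -0.40. The 6 carriers and pores for phosphate and nucleotides had a median of -0.32, from -0.70 for Vdac1 to -0.052 for Vdac2. None of the genes in these 5 lists, or in the 3 before them, was at least 2-fold higher or lower under the scaling used. Of all genes kept, 13.4% passed this fold upward and 5.35% downward in that setting. Pprc1 did reach 1.05 with equal library totals and 1.18 as deposited. The 87 cytosolic ribosomal proteins had a median of 0.037, from -2.53 for Rpl3l, a muscle form, to 0.60 for Rpl12.

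Markers of kidney cell types were measured in the same libraries, and the fewest reads were those of S100a8, a neutrophil marker, with 7 control and 19 CKO reads, and Cd3e, a T cell marker, with 6 and 33. Of 12 proximal tubule markers, 11 had log2 ratios below 0, against 48.3% of all genes kept, or 9 with equal library totals and 8 as deposited, against 20.3% and 9.55%. Past 2-fold in that direction were 5, against 5.35% of all genes kept, or 2 in each of those settings, against 437 of 17682 and 131 of 17469 genes. All 12 markers had at least 8527 control reads. Of the top 10% of genes by control reads, 83.5% were below 0 and 12.1% at least 2-fold lower. These shares were 51.2% and 4.87% with equal library totals and 36.5% and 3.49% as deposited. The median of the 12 was -0.95, and their summed reads were 919823 for the control and 420028, after scaling, for the CKO library. Acsm2 was the most abundant, with 253157 control reads, and the lowest at -1.83. Of 11 leukocyte markers, 10 were at least 2-fold higher, against 13.4% of all genes kept, with a median of 2.61 and sums of 4120 and 28719, and Cd74 was the most abundant. Cd3e, 1 of the 10, and S100a8 reached 10 scaled reads only in the CKO library, where they were higher. With a minimum of 50 scaled reads 8 markers remained, and all 8 were at least 2-fold higher, against 11.2% of all genes kept. Of 7 fibroblast and pericyte markers, 6 were at least 2-fold higher, against the same 13.4%, with a median of 1.88 and sums of 6404 and 23087, and Pdgfrb had the most control reads. The 8 markers of the thick ascending limb and distal tubule, which is also rich in mitochondria, went both ways, from -1.17 for Pvalb to 0.83 for Cldn16, with a median of 0.017. The collecting duct was at 0.34, endothelium at -0.084 and podocytes at -0.11. The part of these cell types in the ratios of respiratory chain genes was not tested, and fewer proximal tubule cells and less RNA per cell cannot be told apart in whole kidney.

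**Figure D5:**
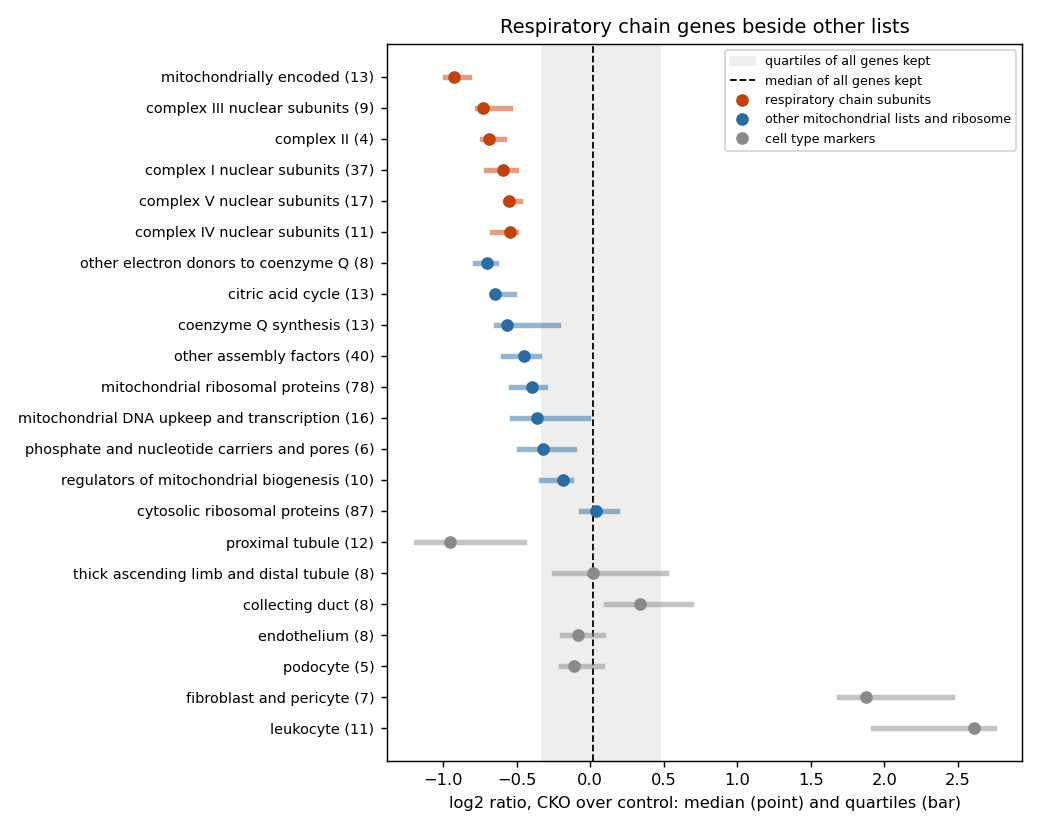
Median log2 ratio (points) and quartiles (bars) of each list, with the number of genes kept in brackets, and the median (dashed line, 0.022) and quartiles (grey band) of all genes kept. The respiratory chain subunits, in orange, lie left of the dashed line beside the citric acid cycle and the other donors to coenzyme Q, whereas the cytosolic ribosomal proteins lie on it. Positions are those of the scaling used; for the deposited values, medians of the nuclear members of complexes I, IV and V lie above 0, still left of the median of all genes.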

How the data were processed

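Poly(A) RNA of whole kidney was sequenced, 1 library for the control and 1 for the CKO group. The authors used STAR 2.7.3a for alignment (build mm10 in the submitters' processing notes), HTSeq for counting and DESeq2 for normalization. The strand and multi-mapping settings are not given in the sources used here. The deposited values are a score: whole numbers that the authors call normalized counts, with lowest values of 35 and 51. The lowest value minus 1 (34 and 50) was subtracted as an inferred constant. Median ratio scaling, a pseudocount of 1 and a minimum of 10 scaled reads in 1 library followed, and a gene counted as past a fold at 2, with 1.5 beside it.

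Members and lists were chosen with earlier results of these data known. Named were all mitochondrially encoded genes, the Sdh genes, nuclear cores of complexes I and III, Cycs, F1 alpha, beta and gamma, isoform pairs, members past 2-fold, and the ends and the most abundant gene of each complex or list. Other genes, the complex I modules and the comparison with abundant genes were chosen after values were seen. Lengths are those of the shortest principal GENCODE M21 transcript, for 113 members. Coa1 and Cd79a were not analysed here. Some genes that the naming rule covers are not reported here. Steps were tested on simulated data with equal numbers of genes raised and lowered. That does not cover data such as these, where 13.4% of genes kept passed 2-fold upward and 5.35% downward. Python 3.11.15, numpy 2.4.6, pandas 2.3.3, scipy 1.17.1 and matplotlib 3.10.9 were used.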

Additional observations from a re-analysis of the deposited data

How the results depend on the processing

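No paired analysis was possible because a group held 1 library. Pseudocounts of 0.1 and 10, no filter, a minimum of 50 scaled reads and equal upper quartiles left the median of every complex below 0. With equal upper quartiles all nuclear members were at -0.54 and the mitochondrially encoded genes at -0.89. With equal library totals the medians for complexes I, II, III, IV and V (nuclear), all nuclear members and the mitochondrially encoded genes were -0.15, -0.27, -0.31, -0.12, -0.13, -0.15 and -0.51. Scaled to genes with at least 1000 control reads, those for I, IV, V, all nuclear and mitochondrially encoded were -0.36, -0.34, -0.35, -0.36 and -0.72. With the values as deposited, II, III and the mitochondrially encoded genes were at -0.10, -0.14 and -0.34, and I, IV, V and all nuclear members changed sign, to 0.022, 0.075, 0.045 and 0.036. Cox6a2, with few reads, changed sign to 0.12 there. Beyond the change of scale and constants, the cause was not tested.

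The median of all genes kept was 0.44, 0.23 and 0.59 in these 3 settings, and relative to it the medians cannot change with a scaling factor. Of genes past 2-fold, 71.4% were higher, against 89.9%, 82.4% and 96.5% in these settings. Members at least 2-fold lower were 0 in each of the 3, against 2.47%, 3.60% and 0.75% of all genes kept. Under the scaling used they were 3 among subunits only, where 0 were higher, against 5.35% and 13.4% of all genes kept. At 1.5-fold they were 55, against 13.9%. With median gene ratio scaling but without subtraction of the constants, 4 members passed 2-fold downward and 0 upward, against 2.65% and 6.85% of all genes kept. As deposited, the mitochondrially encoded share was 16.5% and 11.9% and the nuclear share 2.45% and 2.15% (control and CKO). Without mitochondrially encoded reads, the nuclear share was 2.99% and 2.49%. Of 447 values of the 50 members followed under the alternatives, 276 stayed within their counting intervals, 147 moved out without a change of sign and 24 changed sign, 16 of them as deposited, 5 with equal library totals and 3 when scaled to genes with at least 1000 control reads. Depth limits the genes with few reads, such as Cox4i2 and Cox6a2.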

Other observations

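Other mitochondrial genes, in lists chosen after the data were seen, showed a range of medians under the scaling used. All 20 genes of protein import had log2 ratios below 0, against 48.3% of all genes kept, but 12 of the 20 with equal library totals and 7 as deposited, against 20.3% and 9.55%. Their median was -0.45 under the scaling used and 0.14 as deposited. Under the scaling used they ran from -0.83 for Timm9 to -0.10 for Tomm22. The 14 proteases and chaperones had a median of -0.62, from -0.97 for Hspd1, the matrix chaperonin, to 0.24 for Htra2, a protease of the intermembrane space. The 9 genes of cristae organization and cardiolipin synthesis had a median of -0.50, and the 12 genes of fission, fusion and mitophagy -0.36, with Pink1 the lowest at -0.91.

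The 8 genes that remove peroxide and superoxide in mitochondria had a median of -0.62. Prdx5, a peroxiredoxin, was the only gene of these lists at least 2-fold lower under the scaling used. It had 54294 control and 37504 CKO reads and a log2 ratio of -1.12. It was at -0.70 with equal library totals, -0.92 when scaled to genes with at least 1000 control reads and -0.53 as deposited. Of all genes kept, 5.35% were at least 2-fold lower and 13.4% at least 2-fold higher under the scaling used. The uncoupling proteins differed from the other lists, with 4 genes kept and a median of 0.44. Ucp2 had 2807 and 7020 reads and a ratio of 0.74, and Slc25a27 had 133 and 445 reads and a ratio of 1.15 (interval from 0.87), the only gene of these lists at least 2-fold higher under the scaling used. Ucp2 passed 2-fold as well with equal library totals, at 1.16, and as deposited, at 1.32, while Slc25a27 was at 0.99 when the constants were not subtracted before scaling. Leukocytes also express Ucp2, and the part of the higher leukocyte markers in its ratio was not tested.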
